A study of Drosophila melanogaster with 11 samples.

Results

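The genes described here are 10 intracellular components of the Imd pathway: imd, Fadd, Dredd, key, ird5, Tak1, Tab2, Rel, pirk and cad. They were taken by name from the deposited gene table, 10 of its 14595 genes. The names of 9 matched directly, and Fadd, which the table lists as BG4, was matched by its gene ID. RNA-seq was done on intestinal stem cells (ISCs) and enteroblasts (EBs), the post-mitotic daughters of ISCs, sorted from midguts of female adults aged 5 days. There were 3 libraries of SPEN-ISC, 3 of WT-ISC, 3 of SPEN-EB and 2 of WT-EB. Every fly carried esg>GAL4, tubGAL80.ts, UAS-RFP and nre-GFP, so that GAL4 drives RFP in ISCs and EBs and a Notch reporter adds GFP in EBs. SPEN flies carried in addition UAS-spen RNAi, a single construct against spen, which encodes a large RNA-binding protein. All flies were shifted from 18 to 29°C for 2 days, so the WT groups share the driver and the heat. ISCs are the diploid RFP+ fraction and EBs the diploid RFP+ GFP+ fraction, each from many pooled guts.

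The Imd pathway is the NF-kB route by which fly gut cells respond to peptidoglycan of Gram-negative bacteria. Receptors of the PGRP family recruit the adaptor Imd, which binds Fadd and the caspase Dredd. Imd then activates the kinase Tak1 with its partner Tab2, which in turn activates the IKK complex of ird5 and Kenny (key). Relish (Rel), the NF-kB factor of the pathway, is phosphorylated and cleaved and then turns on antimicrobial peptides and feedback inhibitors. Pirk is such an inhibitor, which takes the receptors away from Imd, and the homeobox factor Caudal (cad) holds down antimicrobial peptide genes in the gut.

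Libraries held between 28206027 and 31991452 exon bin counts, and between 4676 and 6838 genes reached 1 FPKM (fragments per kilobase of exon, scaled to the mapped reads of the library). The WT-EB libraries detected the fewest genes, 4676 and 5021. WT-ISC replicate 1 stood apart from its group, with 5106 genes against 6838 and 6073 in the other WT-ISC libraries. WT-EB replicate 2 had been dropped by the authors for its place in a principal component analysis, so the spread of WT-EB can be too small and p-values against it too low. The level of spen itself was higher in every library labelled SPEN, with 1.61 to 5.04 FPKM in SPEN-ISC against 0.255 to 0.620 FPKM in WT-ISC, and 0.920 to 2.24 FPKM in SPEN-EB against 0.115 to 0.147 FPKM in WT-EB. Most of these spen counts lay in 1 exon bin, E014, which held 61.3% to 88.4% of them in SPEN libraries and 4.44% to 31.3% in WT libraries. The paper attributes the rise to the double-stranded RNA of the construct, which targets this exon. It reports reads there in both orientations under spen RNAi but not in wild type. In its other bins spen had 4.62 to 18.0 CPM in SPEN-ISC against 4.27 to 7.76 in WT-ISC, and 2.89 to 16.0 in SPEN-EB against 1.69 to 2.10 in WT-EB. Reads of the construct and of spen mRNA cannot be told apart in these tables, and a loss of spen mRNA was not seen, so SPEN is used below as the label of the libraries. Of the defining markers, the ISC gene Dl had at least 0.172 FPKM in each WT-ISC library against 0 and 0.0167 FPKM in WT-EB, all low levels. The 3 ISC markers together did not separate the groups, with sums of 5.71 to 107 FPKM in WT-ISC against 4.41 and 8.57 FPKM in WT-EB. Only 2 of the 3 were tested in WT-ISC vs WT-EB, both above 0, and 0 were called. The 5 EB and Notch response genes did not set the EB libraries apart. Their summed deposited level was 1162 to 1694 FPKM in WT-ISC against 1046 and 1074 FPKM in WT-EB, whose libraries were low in most genes. After scaling, 2 of 4 tested were above 0 in WT-ISC vs WT-EB, with a median log2 difference of −0.18. Of the 4, E(spl)m8-HLH was called higher in WT-ISC (0.819 to 4.15 FPKM, against 0 in both WT-EB libraries). It entered the test only through WT-ISC, where it was high, so this call is no support for a difference.

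Between libraries labelled SPEN and WT libraries, pirk and Rel were the members that passed the test. The inhibitor pirk was higher in both cell types of the libraries labelled SPEN, by 3.03 ± 0.37 on the log2 scale in EBs and by 2.83 ± 0.77 in ISCs (SE), and the change passed the test in EBs and over both cell types together. Rel was higher in SPEN-EB by 1.73 ± 0.42 and passed there, whereas in ISCs its libraries overlapped. The 8 other members did not pass in any comparison. Fold changes are from limma on log2(FPKM + 0.5) after scaling of the libraries, which understates changes of genes near 0, and FPKM are given as deposited. A Benjamini-Hochberg adjusted p under 0.05 over all genes tested counts as a call. In sorted bulk cells, fewer cells of a type and less RNA per cell cannot be told apart.

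**Figure D1:**
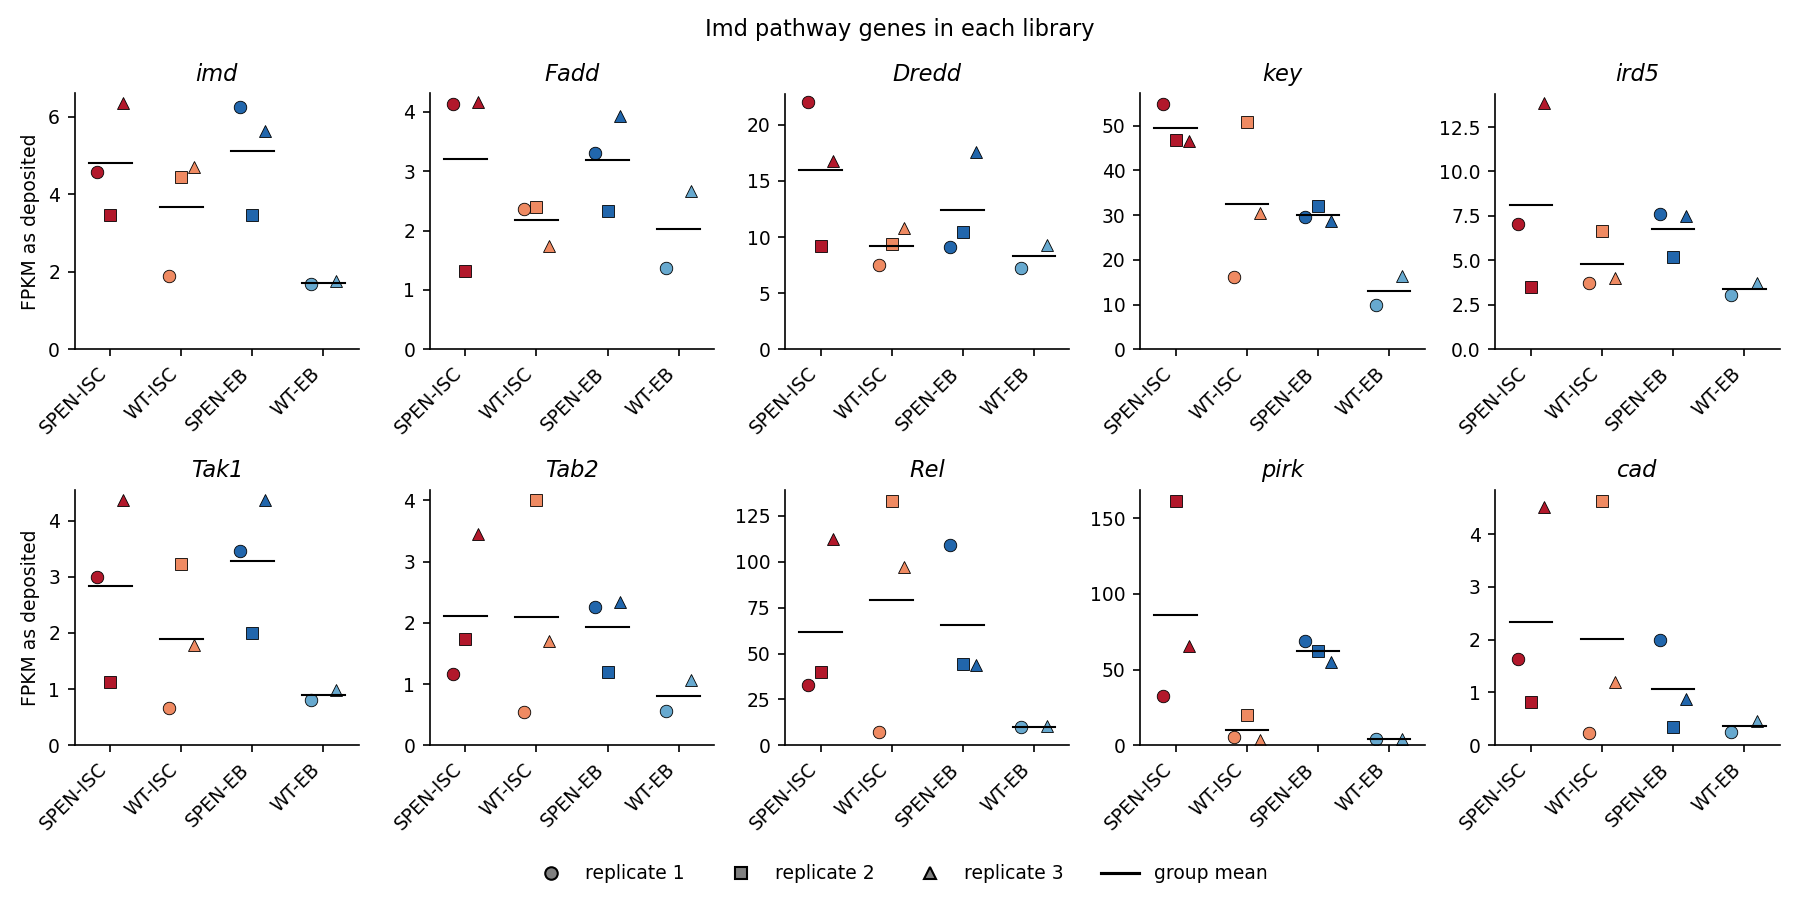
Deposited FPKM (y axes, linear from 0) of the 10 Imd pathway genes in each of the 11 libraries, by group on the x axes, with symbols for replicate number and bars for group means. For pirk all SPEN libraries lie between 32.5 and 161 FPKM and all WT libraries between 3.79 and 20.1 FPKM, whereas Rel in WT-ISC spans 7.47 to 133 FPKM.

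The adaptor step was low throughout. imd (FBgn0013983, 2R, 14297296 to 14299024, minus strand, BDGP5) had 4.58, 3.45 and 6.36 FPKM in SPEN-ISC, against 1.90, 4.44 and 4.70 FPKM in WT-ISC. In SPEN-EB it had 6.26, 3.45 and 5.62 FPKM, against 1.67 and 1.75 FPKM in WT-EB. Every SPEN-EB library was above both WT-EB libraries, as for 48.5% of all genes tested in deposited FPKM. The log2 difference of imd in EBs, 0.65 ± 0.37, did not pass (adjusted p = 0.303), and in ISCs it was 0.14 ± 0.37. Fadd (FBgn0038928, 3R, 17860204 to 17861330, plus strand), the death domain adaptor that links Imd to Dredd, is a gene of 1 exon bin with only 33 to 108 counts per library. It had 4.14, 1.31 and 4.17 FPKM in SPEN-ISC, against 2.37, 2.40 and 1.74 FPKM in WT-ISC. The SPEN-EB libraries had 3.30, 2.33 and 3.93 FPKM, against 1.38 and 2.66 FPKM in WT-EB, and the groups overlapped in both cell types. The log2 difference of Fadd was 0.08 ± 0.43 in ISCs and −0.08 ± 0.38 in EBs. Dredd (FBgn0020381, X, 527553 to 529760, minus strand), the caspase that cleaves Imd and Relish, was the most abundant of the 3. It had 22.0, 9.19 and 16.8 FPKM in SPEN-ISC, against 7.53, 9.35 and 10.8 FPKM in WT-ISC. In EBs it had 9.08, 10.5 and 17.6 FPKM in SPEN-EB, against 7.25 and 9.29 FPKM in WT-EB. After scaling, its log2 difference was 0.41 ± 0.34 in ISCs and −0.25 ± 0.36 in EBs, and neither passed (adjusted p = 1.00 and 0.677). imd, Dredd and key each share 29 to 114 bases with a gene on the opposite strand, and reads were aligned in a strand-specific mode.

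The kinase step was uneven in level. Tak1 (FBgn0026323, X, 20386932 to 20395953, minus strand), the MAP3K of the pathway and the branch point to JNK, had 2.99, 1.13 and 4.37 FPKM in SPEN-ISC, against 0.668, 3.23 and 1.78 FPKM in WT-ISC. In SPEN-EB it had 3.46, 2.00 and 4.36 FPKM, against 0.813 and 0.976 FPKM in WT-EB. Every SPEN-EB library was above both WT-EB libraries, as for 48.5% of all genes tested. The log2 difference of 0.82 ± 0.39 did not pass (adjusted p = 0.212). Tak1 was under 1 FPKM in both WT-EB libraries and was tested there only through SPEN-EB, where it was higher. In ISCs Tak1 differed by 0.27 ± 0.44. Its partner Tab2 (FBgn0086358, 2R, 15180034 to 15192013, plus strand) had 1.16, 1.74 and 3.45 FPKM in SPEN-ISC, against 0.547, 4.01 and 1.71 FPKM in WT-ISC. Its EB levels were 2.26, 1.20 and 2.34 FPKM in SPEN-EB, against 0.553 and 1.07 FPKM in WT-EB. Tab2 too was tested in EBs only through SPEN-EB, where it was higher. For Tab2 the log2 difference was −0.0045 ± 0.49 in ISCs and 0.35 ± 0.39 in EBs, neither past the threshold.

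The regulatory subunit of the IKK complex was far more abundant than the catalytic one. key (FBgn0041205, 2R, 20673037 to 20674932, minus strand), the regulatory subunit, had 55.0, 46.8 and 46.6 FPKM in SPEN-ISC, against 16.2, 50.8 and 30.6 FPKM in WT-ISC. Its EB levels were 29.7, 32.0 and 28.6 FPKM in SPEN-EB, against 9.84 and 16.3 FPKM in WT-EB. ird5 (FBgn0024222, 3R, 11872069 to 11875144, minus strand), the kinase subunit, had 7.05, 3.49 and 13.8 FPKM in SPEN-ISC, against 3.75, 6.68 and 4.02 FPKM in WT-ISC. It had 7.62, 5.17 and 7.52 FPKM in SPEN-EB, against 3.06 and 3.73 FPKM in WT-EB. FPKM of both genes were higher in every SPEN-EB library than in either WT-EB library, as for 48.5% of all genes tested. Much of this went with the scale of the libraries. After scaling, the log2 difference in EBs was 0.44 ± 0.37 for key and 0.17 ± 0.35 for ird5, and neither passed (adjusted p = 0.475 and 0.778), and in ISCs it was 0.46 ± 0.39 for key and 0.27 ± 0.39 for ird5. Without scaling, key passed in EBs, at 1.22 (adjusted p = 0.0299), where the median of all genes tested was itself shifted by 0.66.

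Rel (FBgn0014018, 3R, 4869900 to 4873699, minus strand) was among the 2 most abundant members in each group. It had 109, 44.5 and 43.7 FPKM in SPEN-EB, against 10.1 and 10.3 FPKM in WT-EB. The groups lay far apart, and the fitted change was 3.32-fold (95% interval of the log2 difference 0.85 to 2.61) with an adjusted p of 0.0212 in limma, rank 155 of 5974 genes. In SPEN-ISC Rel had 32.8, 39.8 and 113 FPKM, against 7.47, 133 and 97.3 FPKM in WT-ISC. The ISC groups overlapped widely, and WT-ISC replicate 1 had the lowest Rel of all 11 libraries, near the level of WT-EB. The log2 difference in ISCs was −0.10 ± 0.81 (adjusted p = 1.00), and without WT-ISC replicate 1 it was −1.12 (adjusted p = 1.00). In order of group means, Rel stood at 79.3 ± 64.7 FPKM in WT-ISC, 65.8 ± 37.6 in SPEN-EB, 61.7 ± 44.2 in SPEN-ISC and 10.2 ± 0.141 in WT-EB (SD, n = 3, 3, 3 and 2). The first 3 groups did not differ beyond their spread.

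The call of Rel in EBs was not stable. It held in 11 of 18 alternative settings, with adjusted p between 1.20e-07 and 0.317, and the log2 difference stayed between 1.34 and 2.50. It was lost without WT-EB replicate 1 (adjusted p = 0.0640) and without WT-EB replicate 3 (adjusted p = 0.200), when the group is 1 library whose spread is assumed to be that of the others. edgeR on the summed exon counts gave an adjusted p of 0.10 and DESeq2 0.00443. The SPEN effect on Rel differed between EBs and ISCs by 1.83 ± 1.09 on the log2 scale, which did not pass in limma's interaction test (adjusted p = 0.987).

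pirk (FBgn0034647, 2R, 17548472 to 17549749, minus strand) is a gene of 1 exon bin. It had 32.5, 161 and 65.3 FPKM in SPEN-ISC, against 5.64, 20.1 and 3.79 FPKM in WT-ISC. In SPEN-EB it had 68.7, 62.4 and 55.0 FPKM, against 3.81 and 4.39 FPKM in WT-EB. Every library labelled SPEN was thus above every WT library of either cell type. Within ISCs, pirk was the only member with every SPEN library above every WT library in deposited FPKM, as for 5.93% of all genes tested. The SPEN-EB libraries lay close together, whereas SPEN-ISC replicate 2 was far above the other SPEN-ISC libraries. The counts behind these values were 962 to 4454 in SPEN-ISC against 106 to 559 in WT-ISC, and 1666 to 1937 in SPEN-EB against 113 and 127 in WT-EB. In order of group means, pirk stood at 86.3 ± 66.9 FPKM in SPEN-ISC, 62.0 ± 6.89 in SPEN-EB, 9.83 ± 8.92 in WT-ISC and 4.10 ± 0.409 in WT-EB (SD, n = 3, 3, 3 and 2). The SPEN groups did not differ from each other beyond their spread, nor did the WT groups.

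In EBs the change of pirk was 8.18-fold (95% interval 4.79 to 14.0), with an adjusted p of 3.19e-05 in limma and rank 11 of 5974 genes. The call held in 17 of 18 alternatives and was lost when all 11 libraries were fitted together (adjusted p = 0.0863). In ISCs the estimate was nearly as large, 7.10-fold, but its interval ran from 2.13 to 23.7, and the unadjusted p of 0.00510 gave an adjusted p of 0.674. Without SPEN-ISC replicate 2 the log2 difference in ISCs was 1.97 (adjusted p = 0.465). DESeq2 on summed exon counts called pirk in ISCs (log2 difference 3.26, adjusted p = 0.00375), whereas edgeR did not (3.26, adjusted p = 0.583). Over both cell types in 1 additive fit, pirk rose 7.56-fold (95% interval 3.77 to 15.2, adjusted p = 0.00636), and this call held in 23 of 23 alternatives, with adjusted p of at most 0.0319. That fit uses the libraries of both single comparisons and is no independent result. ISCs and EBs may also come from the same guts, so the p-value of that fit can be too small. The SPEN effect on pirk differed between EBs and ISCs by 0.20 ± 0.97 on the log2 scale (95% interval −1.90 to 2.31, adjusted p = 0.989), an interval too wide to show that the effects are alike.

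cad (FBgn0000251, 2L, 20770736 to 20783135, plus strand) was the least abundant member in EBs. It had 1.63, 0.829 and 4.52 FPKM in SPEN-ISC, against 0.235, 4.63 and 1.20 FPKM in WT-ISC. In SPEN-EB it had 1.99, 0.343 and 0.873 FPKM, against 0.257 and 0.457 FPKM in WT-EB. It reached 1 FPKM in only 1 EB library and was therefore not tested between SPEN-EB and WT-EB, and in ISCs its log2 difference was 0.21 ± 0.57. WT-ISC replicate 1 again had the lowest value of all libraries.

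**Figure D2:**
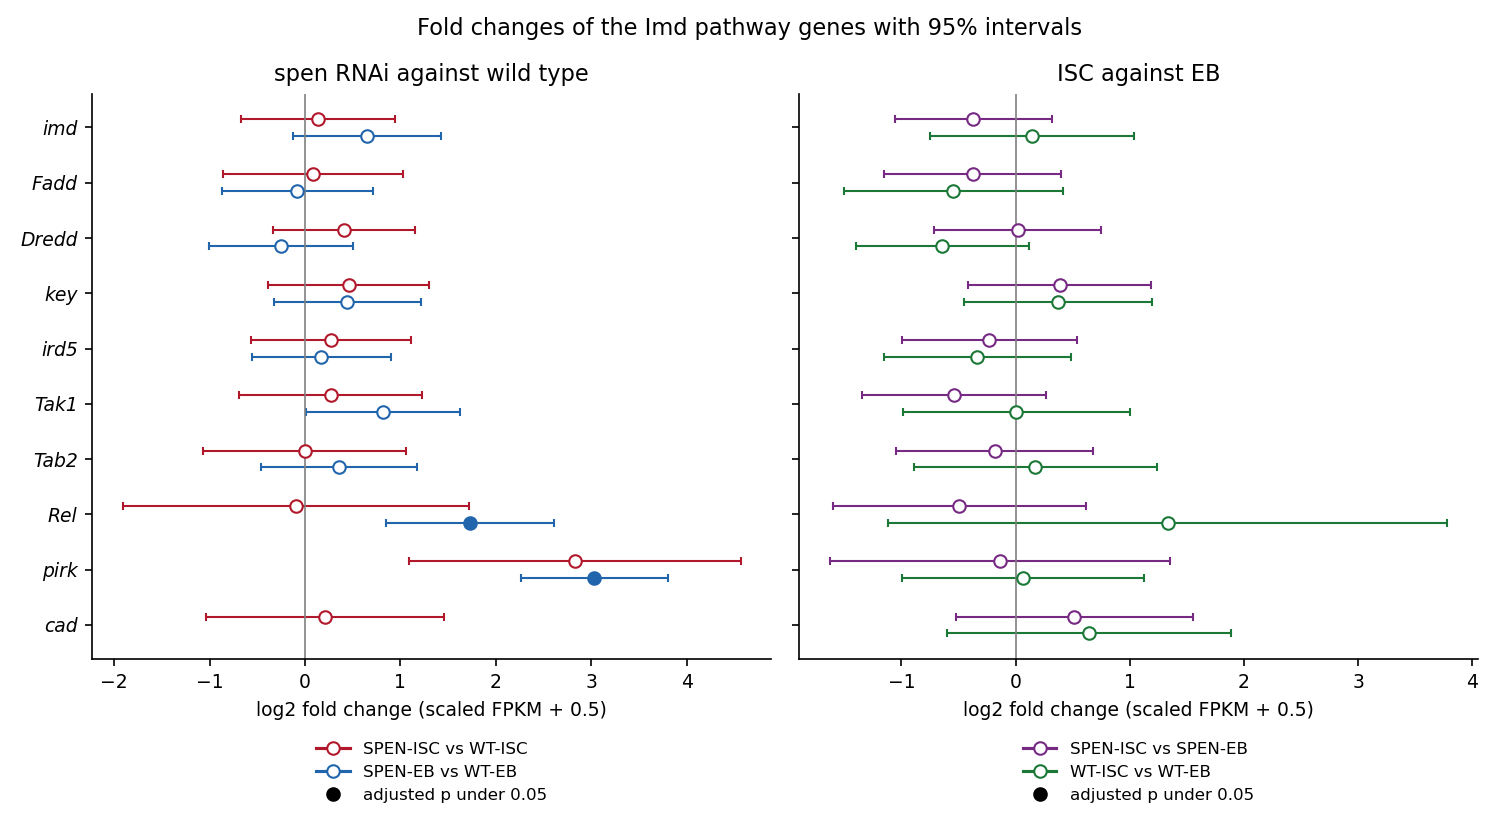
Log2 fold changes of the 10 members (x axes) with 95% intervals from limma, SPEN against WT within ISCs and EBs at left and ISC against EB within SPEN and WT at right, with filled points for an adjusted p under 0.05. Filled points are pirk (3.03) and Rel (1.73) in SPEN-EB vs WT-EB, and cad was not tested there.

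Counted over the members, 2 of 9 tested passed between SPEN-EB and WT-EB, both higher, where 5.26% of 5974 genes passed, and 3.21% passed as higher (192 genes, with 122 lower). The split of all calls depended on the scaling, with 243 higher and 375 lower when all genes set the scale, 142 and 43 when only genes with 1 FPKM in every library did, 217 and 215 with median ratios, and 928 and 39 with none. pirk was higher and called under each of these scalings, and Rel under each but the one over genes present in every library (adjusted p = 0.0874). Between SPEN-ISC and WT-ISC, 0 of 10 passed in limma, where 0.0628% of 6371 genes passed. At an unadjusted p under 0.05 there was 1 member, pirk, and edgeR called 0 members and DESeq2 1. Over both cell types, 1 of 10 passed, pirk, where 1.85% of 7027 genes passed and 0.911% as higher (64, with 66 lower, and 155 and 32 without scaling). In the interaction test, 0 of 10 members and 0% of 7027 genes passed in limma, 0 members and 126 genes had an unadjusted p under 0.05, and edgeR and DESeq2 called 0 members. The median log2 difference over the members was 0.44 in EBs, beside −0.04 over all genes tested, and 0.24 in ISCs, beside 0.00. The difference was above 0 for 7 of 9 members in EBs, beside 2869 of 5974 genes. These 7 include Tak1 and Tab2, tested only through SPEN-EB. In ISCs the difference was above 0 for 8 of 10 members, beside 3222 of 6371 genes. Over both cell types it was so for 10 of 10, beside 3793 of 7027 genes, with a median of 0.32 beside 0.05. Of these 10, Fadd lay at 0.01 ± 0.24 and Dredd at 0.12 ± 0.23. The signs of Fadd, Dredd and Tab2 turned under some alternatives.

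In deposited FPKM, 7 of the 9 members tested in EBs (imd, key, ird5, Tak1, Tab2, Rel and pirk) had every SPEN-EB library above every WT-EB library. This held for 48.5% of all genes tested, since the WT-EB libraries were low in most genes. After scaling, 5 of 9 did so (imd, ird5, Tak1, Rel and pirk), against 18.7% of all genes. Tak1 and Tab2 entered the test only through SPEN-EB, where they were higher. Their place in these counts is thus no support for a difference. In ISCs, 1 of 10 members had every SPEN-ISC library above every WT-ISC library in deposited FPKM (pirk), against 5.93% of all genes, and 2 of 10 did after scaling (Dredd and pirk), against 3.58%.

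No member passed between the cell types. Between SPEN-ISC and SPEN-EB, 0 of 10 passed in limma, where 0.627% of 6225 genes passed, and between WT-ISC and WT-EB 0 of 10 passed, where 2.82% of 6128 genes passed. No member had an unadjusted p under 0.05 in either comparison, and edgeR and DESeq2 called 0 members in each. For pirk the log2 difference was −0.14 ± 0.66 between SPEN-ISC and SPEN-EB and 0.07 ± 0.49 between WT-ISC and WT-EB. Rel had the widest gap, 1.33 ± 1.00 between WT-ISC and WT-EB (adjusted p = 0.531). That comparison turned on WT-ISC replicate 1. Without it, Rel was higher in WT-ISC by 2.36 (adjusted p = 1.72e-05), while the count of all genes called was 1751 in place of 173. cad passed there too (1.17, adjusted p = 0.0466), but it was under 1 FPKM in both WT-EB libraries and entered the test through WT-ISC, where it was high, so this call is no support for a difference.

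Levels of Rel and pirk were set side by side in each library. Both were higher in each SPEN-EB library than in either WT-EB library. In WT-ISC replicates 2 and 3 Rel was high with lower pirk, and in SPEN-ISC replicate 2 pirk was above Rel. Whether Rel sets the level of pirk was not tested. The ratio of pirk to Rel FPKM was 0.630, 1.40 and 1.26 in SPEN-EB, against 0.379 and 0.428 in WT-EB. In SPEN-ISC it was 0.990, 4.05 and 0.580, against 0.754, 0.151 and 0.0389 in WT-ISC. The ratio was higher in each SPEN-EB library than in WT-EB, while in ISCs WT-ISC replicate 1, with low Rel, lay among the SPEN-ISC libraries. WT-ISC replicates 2 and 3 held the highest share of Rel among the FPKM of the 10 members, 55.8% and 61.7%, and 8.41% and 2.40% of pirk. SPEN-ISC replicate 2 was their opposite, with 59.9% pirk and 14.8% Rel. Over the 11 libraries, Pearson's r of scaled log2 levels was 0.35 between pirk and Rel, 0.74 between imd and Rel, 0.77 between Tab2 and Rel and 0.71 between cad and Rel. The r with Rel was 0.60 for Tak1, 0.41 for key and 0.067 for ird5, and it was negative for Dredd (−0.64) and Fadd (−0.57). These values are descriptions over 11 libraries of 4 groups. The libraries also shared their complexity, since the number of genes detected had an r of 0.90 with cad, 0.78 with Rel and 0.33 with pirk, but of −0.59 with Dredd and −0.42 with Fadd.

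**Figure D3:**
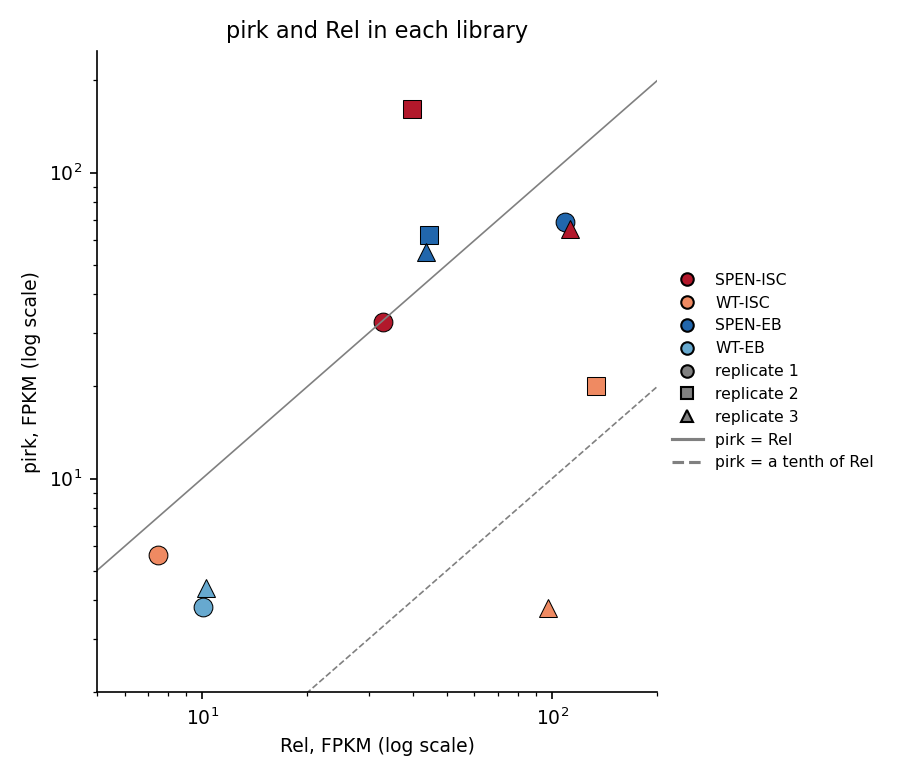
FPKM of pirk (y axis, log scale) against FPKM of Rel (x axis, log scale) in each of the 11 libraries, with colours for groups and symbols for replicate number; the lines mark equal levels and a pirk level 10 times lower. WT-ISC replicates 2 and 3 have high Rel (133 and 97.3 FPKM) with low pirk (20.1 and 3.79 FPKM), and WT-ISC replicate 1 lies beside the WT-EB libraries.

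The genes whose scaled levels followed Rel most closely over the 11 libraries, among 7026 genes, were SCAP (r = 0.97), scat (0.97) and dia (0.96). SCAP had 2.52 to 6.47 FPKM in SPEN-EB against 0.911 and 0.989 FPKM in WT-EB, and like Rel it was lowest among ISC libraries in WT-ISC replicate 1 (0.961 FPKM). Those closest to pirk were rost (0.96), CG5482 (0.95) and CG8642 (0.93). rost had 88.0 to 96.9 FPKM in SPEN-EB against 26.2 and 27.1 FPKM in WT-EB, and 76.6 to 112 FPKM in SPEN-ISC against 33.2 to 89.3 FPKM in WT-ISC. These values are descriptions over 11 libraries, and some genes of so many will have a high r.

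Upstream of the members, peptidoglycan recognition genes were mostly detected. Of 10, 9 were tested between SPEN-EB and WT-EB, and 7 of these were above 0. Of all genes tested there, 3.21% passed as higher. The only gene of this list to pass was PGRP-SC2, a secreted amidase that degrades peptidoglycan and dampens the pathway (log2 difference 1.69 ± 0.46, adjusted p = 0.00937). It had 33.8, 33.0 and 64.8 FPKM in SPEN-EB, against 6.13 and 8.59 FPKM in WT-EB. In ISCs it had 172, 70.6 and 19.5 FPKM in SPEN-ISC, against 39.2, 80.0 and 177 FPKM in WT-ISC, and it was also called between WT-ISC and WT-EB (2.62, adjusted p = 0.00538), a comparison that shares the WT-EB libraries. The most abundant gene of this list, PGRP-SD, a secreted recognition protein, had 145 to 224 FPKM in SPEN-EB against 112 and 142 FPKM in WT-EB, and 43.3 to 158 FPKM in SPEN-ISC against 41.9 to 87.8 FPKM in WT-ISC. Without a call, PGRP-SD (WT-ISC vs WT-EB and SPEN-ISC vs SPEN-EB), PGRP-LE (over both cell types) and PGRP-SC2 (interaction) had an unadjusted p under 0.05 in limma. Of the 5 positive factors, 0 passed in any of the 6 comparisons in limma, with 1 at an unadjusted p under 0.05 (Diap2, between WT-ISC and WT-EB). The most abundant were the ubiquitin-conjugating enzymes eff and Uev1A, a variant without catalytic activity. Of 12 other negative regulators, 9 were tested and 0 passed in any comparison, with 1 at an unadjusted p under 0.05 (scny, in EBs). The most abundant were SkpA, a subunit of SCF ubiquitin ligases, and dnr1, an inhibitor of Dredd, which had 2.25 to 20.8 FPKM in SPEN-EB against 1.74 and 1.94 FPKM in WT-EB.

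The antimicrobial peptides and effectors, which Relish turns on, were near absent. Of 15, between 1 and 4 reached 1 FPKM in a library. Their summed level was 5.24 to 13.0 FPKM in SPEN-EB against 4.58 and 4.98 FPKM in WT-EB, and 3.51 to 14.6 FPKM in SPEN-ISC against 4.53 to 47.3 FPKM in WT-ISC. The highest single value was the diptericin gene Dpt in WT-ISC replicate 3, with 41.9 FPKM, where Rel was at 97.3 and pirk at 3.79 FPKM; in libraries labelled SPEN it had at most 0.366 FPKM, and in WT-EB at most 0.178 FPKM. AttD, an attacin gene, was the only one of the 15 above 1 FPKM in every library, with 1.66 to 5.73 FPKM in SPEN-ISC against 1.79 to 5.80 FPKM in WT-ISC, and 2.20 to 3.69 FPKM in SPEN-EB against 2.44 and 3.14 FPKM in WT-EB. Only 2 of 15 could be tested in EBs and 1 of 15 in ISCs, none passed in any of the 6 comparisons in limma, and 1 (AttC, over both cell types) had an unadjusted p under 0.05. AttC, another attacin gene, was picked out after its values were seen. It had 0.864, 4.26 and 0.709 FPKM in SPEN-ISC, against 0, 0.102 and 0 FPKM in WT-ISC, and 0.252, 1.66 and 0.0937 FPKM in SPEN-EB, against 0 FPKM in both WT-EB libraries. The libraries labelled SPEN were the higher ones within each cell type, at low levels. Among genes tested, 5.93% in ISCs and 48.5% in EBs had this in deposited FPKM. AttC was picked out with these values known, so its pattern is no support for a difference. AttC was tested only in the fits of all libraries, which it entered through a pair of SPEN libraries above 1 FPKM, and its log2 difference of 1.42 ± 0.47 over both cell types did not pass (adjusted p = 0.141).

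Below Tak1, the JNK branch had 5 of 6 genes tested in EBs and 6 of 6 in ISCs, and 0 passed in limma in any of the 6 comparisons. In EBs 2 of them, bsk and puc, had an unadjusted p under 0.05, as had 1354 of the 5974 genes tested there, and elsewhere so did puc (WT-ISC vs WT-EB), bsk (SPEN-ISC vs SPEN-EB) and bsk and kay (over both cell types). The most abundant were Jra, the fly Jun, with 71.5 to 101 FPKM in SPEN-EB against 50.1 and 73.2 FPKM in WT-EB, and puc, the phosphatase that shuts off JNK, with 4.11 to 25.4 FPKM in SPEN-EB against 1.40 and 1.89 FPKM in WT-EB. In the Toll pathway, the other NF-kB route of the fly, 6 of 10 genes were tested and 0 passed in any comparison, with pll (over both cell types) and dl (WT-ISC vs WT-EB) at an unadjusted p under 0.05. Its most abundant genes were the kinase gene pll, with 4.98 to 8.07 FPKM in SPEN-EB against 5.45 and 5.47 FPKM in WT-EB, and the inhibitor gene cact, with 2.78 to 4.71 FPKM in SPEN-EB against 1.23 and 1.51 FPKM in WT-EB. Median log2 differences in EBs were 0.54 for recognition genes, 0.51 for negative regulators, 0.92 for the JNK branch and 0.59 for the Toll pathway, beside −0.04 over all genes tested. They were 0.08 for the 5 positive factors and −0.14 for the 2 antimicrobial peptide genes tested.

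**Figure D4:**
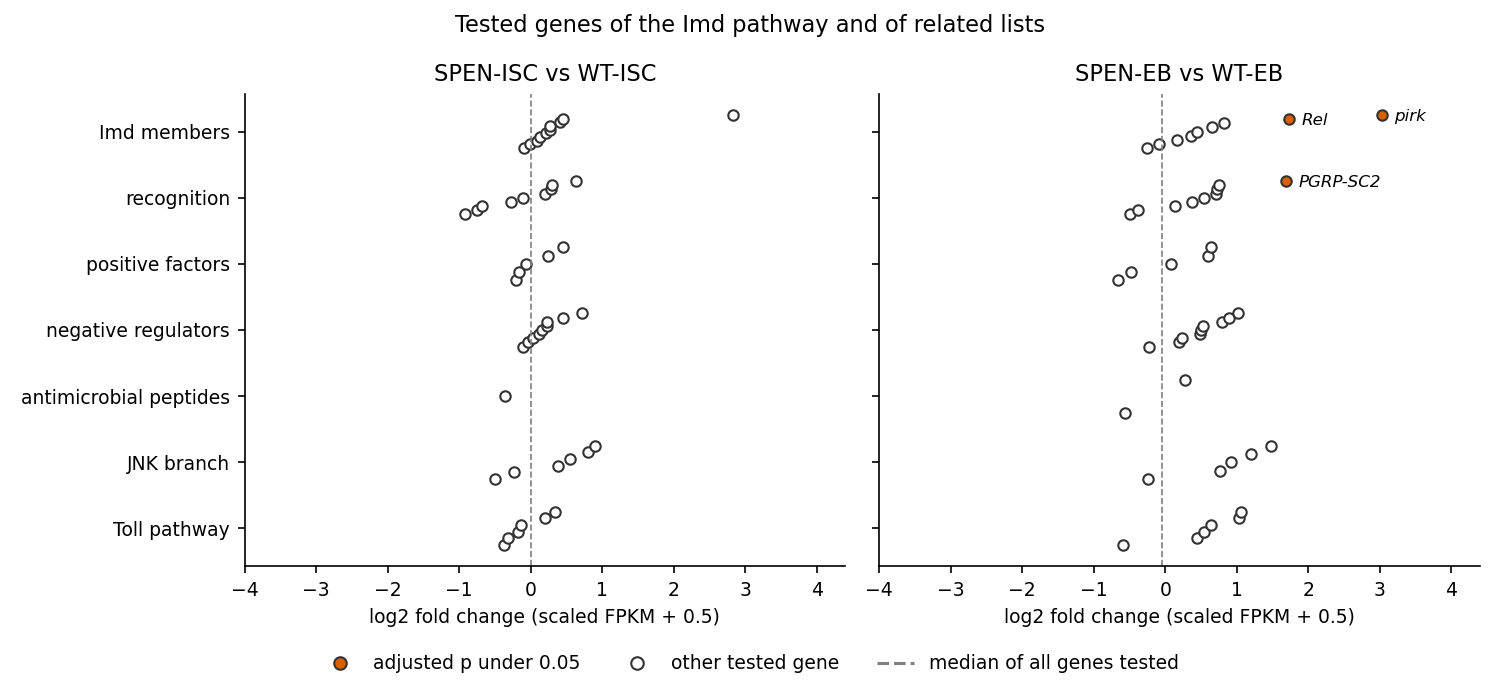
Log2 fold change (x axes) of each tested gene of the Imd pathway and of the related lists, in SPEN-ISC vs WT-ISC and in SPEN-EB vs WT-EB; filled points passed the test, and the dashed line is the median of all genes tested. In EBs pirk, Rel and PGRP-SC2 passed, and in ISCs no gene shown did, pirk lying at 2.83.

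Summed levels of enterocyte and enteroendocrine markers separated SPEN-EB from WT-EB, while SPEN-ISC and WT-ISC overlapped. The summed level of 8 enterocyte markers was 2732 to 2831 FPKM in SPEN-EB against 292 and 359 FPKM in WT-EB, and 1804 to 5299 FPKM in SPEN-ISC against 1658 to 3023 FPKM in WT-ISC, with 7 of the 8 at 1 FPKM or more in each library. After scaling, 7 of 7 tested were above 0 in SPEN-EB vs WT-EB (median log2 difference 1.06), but 1 of 7 in SPEN-ISC vs WT-ISC (median −0.61), where the sum rests on abundant genes such as alphaTry (1052 to 2894 FPKM in SPEN-ISC against 319.5 to 1165 FPKM in WT-ISC). Of them, alphaTry (2.93, adjusted p = 8.45e-05) and Jon99Ciii (2.27, adjusted p = 0.000894) were higher in SPEN-EB, as Rel, pirk and PGRP-SC2 were. Enteroendocrine markers summed to 119, 2710 and 307 FPKM in SPEN-ISC against 1291 to 2255 FPKM in WT-ISC. The highest sum was in SPEN-ISC replicate 2, which also had the highest pirk. In EBs these markers summed to 5.44 to 11.3 FPKM in SPEN-EB against 15.8 and 23.2 FPKM in WT-EB. The part of these markers in the changes of pirk and Rel was not tested. Fat body, the main site of Imd signalling outside the gut, and haemocytes left little RNA, as the 7 haemocyte and 8 fat body markers summed to at most 1.38 and 5.40 FPKM in a library, and no haemocyte marker reached 1 FPKM.

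Exon usage was compared as the log2 ratio of the counts of an exon bin to those of the rest of its gene. pirk and Fadd have 1 bin and could not be compared. Between SPEN-ISC and WT-ISC 0 of 41 member bins passed in limma, where 0.0346% of 28908 bins passed, with 0 at an unadjusted p under 0.05. Between SPEN-EB and WT-EB 0 of 41 passed, where 0.0494% of 26321 bins passed, with 3 at an unadjusted p under 0.05 (1416 of all bins). Between WT-ISC and WT-EB 0 of 39 passed, where 0.0401% of 27465 bins passed, with 6 at an unadjusted p under 0.05 (1423 of all bins). edgeR's diffSpliceDGE called 0 member bins in each.

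The smallest p in EBs was that of ird5 E005, the 5′ bin of the gene (3R, 11874943 to 11875144). It held 37.3%, 45.6% and 37.4% of ird5 counts in SPEN-EB, against 61.8% and 56.8% in WT-EB, a log2 ratio difference of −1.14 ± 0.25 (adjusted p = 0.341 in limma). The bin was picked by its p, so the gap between its EB shares is no support for a difference. In ISCs the shares were 37.0%, 40.8% and 28.1% in SPEN-ISC against 64.7%, 28.2% and 48.7% in WT-ISC. Between WT-ISC and WT-EB the smallest p was that of Rel E002 (3R, 4869905 to 4871949), the largest Rel bin. It held 69.4%, 63.9% and 65.1% of Rel counts in WT-ISC, against 73.1% and 74.3% in WT-EB (−0.62 ± 0.14, adjusted p = 0.290 in limma). In SPEN libraries its share spread widely, with 75.1%, 82.8% and 63.0% in SPEN-ISC and 60.8%, 71.5% and 77.8% in SPEN-EB. Between SPEN-ISC and WT-ISC the smallest p was that of Tak1 E005, at 0.0532 in limma, a bin with only 2 to 25 counts in these libraries. The median ratio of 3′ to 5′ coverage over 2884 genes differed between libraries too, at −0.24 on the log2 scale in SPEN-EB replicate 3 and between −0.67 and −0.44 in the others, and its part in the bin shares was not tested.

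**Figure D5:**
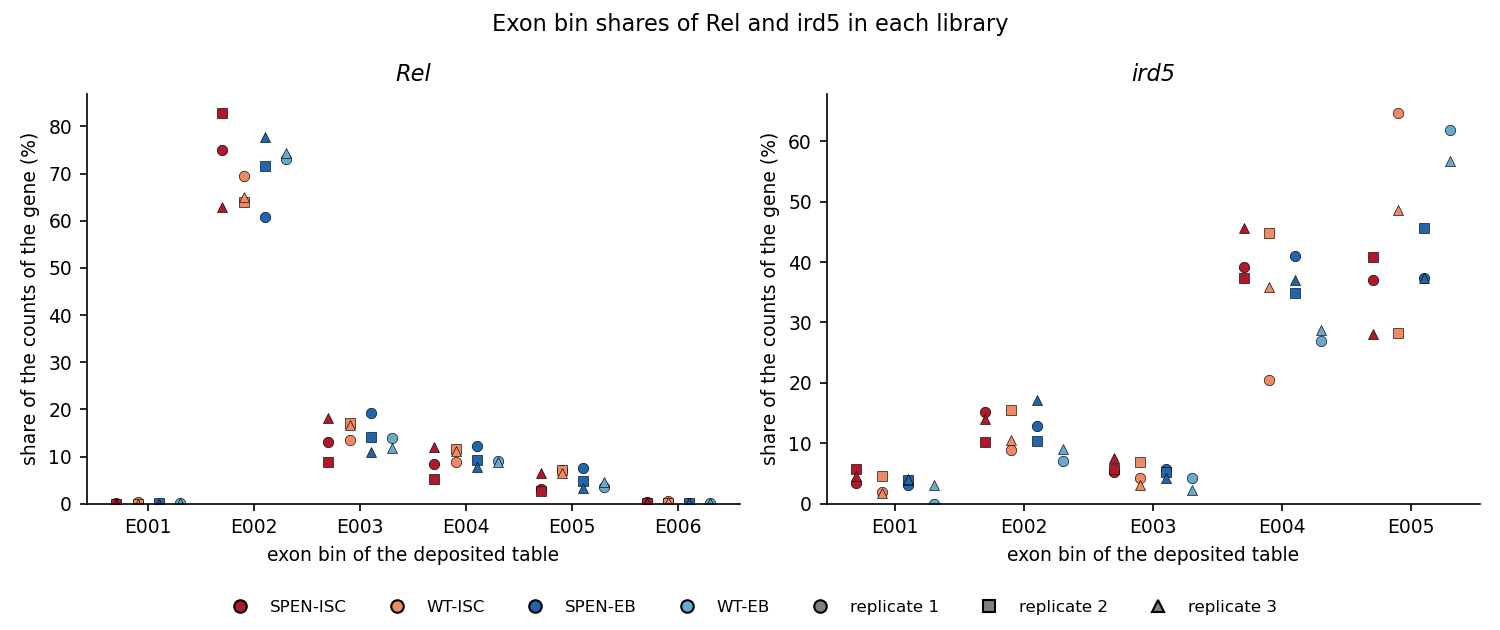
Share of the counts of a gene (y axes, %) that fell in each exon bin of Rel and ird5 (x axes), per library, with colours for groups and symbols for replicate number. ird5 E005 takes 37.3% to 45.6% in SPEN-EB and 56.8% and 61.8% in WT-EB, and Rel E002 takes most Rel counts in every library.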

How the data were processed

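RNA-seq libraries of ISCs and EBs sorted from pooled midguts were compared in 4 groups, 11 libraries in all, labelled as biological replicates. Paired 100-base reads were aligned by the authors with TopHat2 2.0.6, keeping 1 site per read, so reads of near-identical genes may be misplaced. The gene table was deposited as FPKM on BDGP5 gene models, and the exon bin table was deposited as raw counts with no normalization. The labels name a kit that removes ribosomal RNA and the study's methods name poly(A) capture, which cannot be settled here. The authors ran DESeq2 1.12.2 for their comparisons, and their fold changes and p-values were not used, nor were 16 repeated per-sample and 8 group mean columns. The gene table holds FPKM, so no count model is the main test.

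The members and lists were chosen with earlier results of these data known. All 10 members are named; of each related list, the 2 most abundant genes and those called. FPKM were scaled by trimmed means (30% of log ratios, 5% of mean levels) over genes with at least 1 FPKM in 2 or more libraries, and log2(FPKM + 0.5) was tested with limma 3.58.1 (trend, robust, R 4.3.3), for genes that reached 1 FPKM in a number of libraries no lower than the size of the smaller group, with Benjamini-Hochberg adjustment at 0.05. Each comparison used its own libraries, and the additive and interaction fits all 11. This scaling was settled after results had been seen: trimmed means over all genes and over genes with 1 FPKM in every library were run too, and the version taken keeps low values from setting the scale. Exon bins were tested with limma on log2 ratios (offset 0.5). A bin needed at least 10 counts, scaled to the median depth, in a number of libraries no lower than the size of the smaller group. It also needed 15 counts in all and 15 in the rest of its gene. Other scalings, filters and pseudocounts, edgeR 4.0.16, DESeq2 1.42.0 and fits without each library were tried. p-values measure the spread between these samples. Figures were drawn with matplotlib 3.10.9.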

Additional observations from a re-analysis of the deposited data

How the results depend on the processing

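Of 1167 alternative values of 59 member differences, 1061 kept direction and call, 93 uncalled values took the other sign, 8 calls were lost, 5 were gained and 0 called values reversed. The lost calls were those of Rel in EBs, with adjusted p of 0.195 with no filter on low values and 0.0837 in edgeR with DESeq2 size factors among them, and of pirk in EBs in the fit of all 11 libraries. For SPEN-ISC vs WT-ISC, the 4 genes called became 1 with a pseudocount of 1, 0 with no filter, 2 with no scaling, 7 with median ratios, 13 and 0 with trimmed means over all genes and over genes present in every library, 0 in edgeR with either scaling, 54 in DESeq2, 16 in the fit of all libraries and 0 to 14 on leaving out 1 library; the 0 members called became 1 in DESeq2. For SPEN-EB vs WT-EB, the 314 genes became 41 with no filter, 967 with no scaling, 618 and 185 with these trimmed means, 73 and 94 in edgeR, 506 in DESeq2, 47 in the fit of all libraries and 114 (without WT-EB replicate 1) to 849 (without SPEN-EB replicate 2) on leaving out 1 library, with 185 without WT-EB replicate 3 and 473 without SPEN-EB replicate 3. The 2 members called there became 1 with no filter, 1 with genes present in every library, 1 in edgeR with either scaling, 0 in the fit of all libraries and 1 to 2 on leaving out 1 library. For WT-ISC vs WT-EB, the 173 genes became 20 with no filter, 97 with no scaling, 72 with genes present in every library, 112 in edgeR with TMM, 401 in DESeq2, 114 in the fit of all libraries and 97 to 1751 on leaving out 1 library (members 0 to 2). For SPEN-ISC vs SPEN-EB, the 39 genes became 2 with no filter, 71 with no scaling, 20 and 21 in edgeR, 189 in DESeq2, 74 in the fit of all libraries and 19 to 44 on leaving out 1 library. Over both cell types, the 130 genes became 60 with no filter, 442 in DESeq2 and 33 (without WT-EB replicate 1) to 459 (without WT-ISC replicate 2) on leaving out 1 library, and the 0 of the interaction became 1 with no filter and 1 in DESeq2. Member exon bins called were 0 to 1 on leaving out 1 library in ISCs (1 without SPEN-ISC replicate 3) and between WT-ISC and WT-EB (1 without WT-ISC replicate 1). Same-numbered libraries did not steadily deviate together (r from −0.63 to 0.62, over 0.1 in 5 of 15 pairs), and the main fits did not pair them. Such correlations cannot show that the samples are unpaired. ISCs and EBs were sorted at the same time and may share guts, so p-values of fits over both cell types can be too small. With the replicate number as a block, 25 genes and 1 member (pirk) were called in ISCs, 780 genes and 1 member bin (ird5 E005) in EBs and 65 genes over both cell types. The trimmed means over other genes, and bin tests without weights, were chosen after seeing the data. The causes were not tested. The count of WT-EB libraries, 2, and the low counts of Fadd, Tak1, Tab2 and cad limit what could be called.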
